A study of Saccharomyces cerevisiae with 7 samples.

Results

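The introns described here are the long introns of Saccharomyces cerevisiae that stayed no denser than their host transcripts in saturated cultures. They were chosen by 4 criteria: at least 10 reads in a library, a length of 200 nt or more, a host that is no ribosomal protein gene and stands outside a short list of other omitted hosts, and an intron TPM that did not exceed the host TPM in either saturated library. TPM is a level per length. Of 300 introns in the deposited tables, 13 met the criteria. They lie in YRA1, BMH2, YJR079W, GLC7, SIM1, APE2, PSP2, HRB1, COX4, UBC13, QCR9, MTR2 and SEC27. Of 139 introns of 200 nt or more, 103 have ribosomal protein hosts and 3 stayed under the read minimum: BUD25, YDR535C and PES4, with at most 1, 8 and 9 reads. A further 24 met the read minimum and were not omitted. Of these, 7 exceeded their hosts in both saturated libraries and 4 in 1 of them, which leaves the 13. Because intron and host TPM in saturated cultures decided membership, values from saturated cultures are given as a description, with no test.

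Total RNA from the laboratory strain BY4741, grown in synthetic complete medium at 30 °C, was depleted of ribosomal RNA, fragmented and sequenced as single reads. The groups were 100 nM rapamycin for 1 h (1 library), 100 nM rapamycin for 4 h (1), cultures grown to saturation (2), a lawn grown for 3 days (1) and log-phase cultures harvested at an OD600 of 0.5 (2). All were seeded at an OD600 of 0.2, and only the rapamycin cultures are labelled with 4 h of growth beforehand. No untreated culture is labelled as matched to them in time, so time in culture and time in rapamycin cannot be told apart. No mutation or treatment other than the marker deletions of the strain was shared by these groups. The design text speaks of 10 samples, and those beyond these 7 were not analysed here.

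An intron leaves its pre-mRNA as a lariat, which the debranching enzyme Dbr1 opens and exonucleases then degrade, so an excised intron is normally short-lived relative to the mature mRNA. The series concerns excised introns that persist as linear RNAs when growth slows or when rapamycin inhibits the TORC1 kinase. Intron reads can come from unspliced precursor or from excised intron, and counts over a whole intron do not separate these forms.

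Gene reads per library ran from 1019287 to 9438379, and the 13 introns together gave 335 to 3180 reads per library, or 1.14% to 3.81% of all intron reads. Levels of strain markers were a check on the labels: a-type mating genes summed to 317 to 3081 TPM and alpha-type genes to 17.2 to 78.4 TPM, and BY4741 is of mating type a. BY4741 carries deletions in 4 marker genes, and the deletion in HIS3 is partial. LEU2, MET17 and URA3 were at most 8.97 TPM, and HIS3 stood at 97.5 to 600 TPM. All 4 marker genes had reads in at least 1 library. The 9 meiosis and spore-wall genes summed to 22.1 to 71.8 TPM, with no gene at 0 in all libraries. The part of HIS3 or of these genes in any result was not tested. In bulk RNA, fewer cells of a kind and less RNA per cell cannot be told apart. Nothing in the labels says that replicates came from separate cultures, so p-values here measure at most the spread between these samples. That spread comes from the log-phase and saturated pairs alone. Groups with 1 library add none and are assumed to share it. For introns relative to host, prior degrees of freedom were infinite, so the spread was pooled over introns.

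Among the 13 introns the lengths, derived from the ratio of reads to TPM, ran from 200 nt in SEC27 and 204 nt in MTR2 to 766 nt in YRA1. Just outside the length limit were the introns of COI1 at 194 nt and YSC84 at 168 nt. Nearest the density limit inside it were GLC7 and SIM1, which reached 97.9 and 98.4 intron TPM per 100 host TPM in their higher saturated library. Just outside it were GCR1 (105 and 86.8 in saturated replicates 1 and 2) and DBP2 (114 and 66.7), each above its host in 1 saturated library.

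The position of an intron relative to the annotated span of its host was a property that the criteria did not use. For BMH2, SIM1, COX4 and MTR2 the counted host length equalled the annotated span, so that the intron lies outside the span. This made 4 of 13 long introns (30.8%), against 15 of 138 (10.9%) over the long introns and the following classes together. Among shorter introns that were also no denser than their hosts it was 4 of 55 (7.3%). It was 3 of 35 (8.6%) among introns denser than their hosts in both saturated libraries and 4 of 35 (11.4%) among those denser in 1. Of the 11 long introns that were denser than host in 1 or both saturated libraries, 4 (36.4%) also lie outside the span, those of URA2, IRC18, ARF2 and SUN4. The remaining 9 introns lie inside the spans of their hosts. For BMH2, SIM1, COX4 and MTR2 the span length is divisible by 3, as in a coding sequence. Lying outside the span therefore does not place an intron outside the transcript of its host. The intron was longer than the counted host itself in 3 of the 13. The hosts lie on 8 chromosomes, with 3 on chromosome IV and 3 on chromosome VII. Only the span of YJR079W overlapped annotated genes, namely BNA2 by 17 nt and AIM24 by 808 nt.

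GLC7 (YER133W, chrV:432495-433958, R64 build), the catalytic subunit of protein phosphatase 1, holds an intron of 525 nt inside the gene. The intron had 21.9 TPM after 1 h in rapamycin, 313 TPM after 4 h, 323 and 306 TPM in saturated cultures, 1053 TPM in the lawn, and 15.4 and 16.6 TPM in log phase. Its host had 426, 432, 446 and 312, 498, and 266 and 232 TPM in the same order of groups. Thus the intron was at its log-phase level after 1 h and more than 10 times above both log-phase libraries at 4 h, at saturation and in the lawn, while host TPM varied far less.

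Expressed per 100 host TPM, the GLC7 intron had 5.15 at 1 h (95% counting interval 4.15 to 6.32), 72.4 at 4 h (67.2 to 77.9), 72.3 and 97.9 in saturated cultures, 211 in the lawn (189 to 236), and 6.49 ± 0.96 in log phase (SD, n = 2). The lawn value was the only one above 100 for any of the 13 introns in any library. Relative to its host the intron rose by 3.53 ± 0.37 (log2 ± SE) at 4 h against log phase (edgeR quasi-likelihood test, Benjamini-Hochberg adjusted p = 3.21e-18). In the lawn it rose by 5.08 ± 0.38 (edgeR, adjusted p = 4.18e-33). At 1 h the change was -0.28 ± 0.40 (edgeR, adjusted p = 0.915). Intron level, scaled to gene reads, rose by 3.76 ± 0.41 at 4 h and 5.50 ± 0.42 in the lawn (edgeR, adjusted p = 0.000418 and 3.02e-05). Host RNA alone changed by 0.27 ± 0.38 at 4 h and 0.46 ± 0.38 in the lawn, neither called (edgeR, adjusted p = 0.638 and 0.36).

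**Figure D1:**
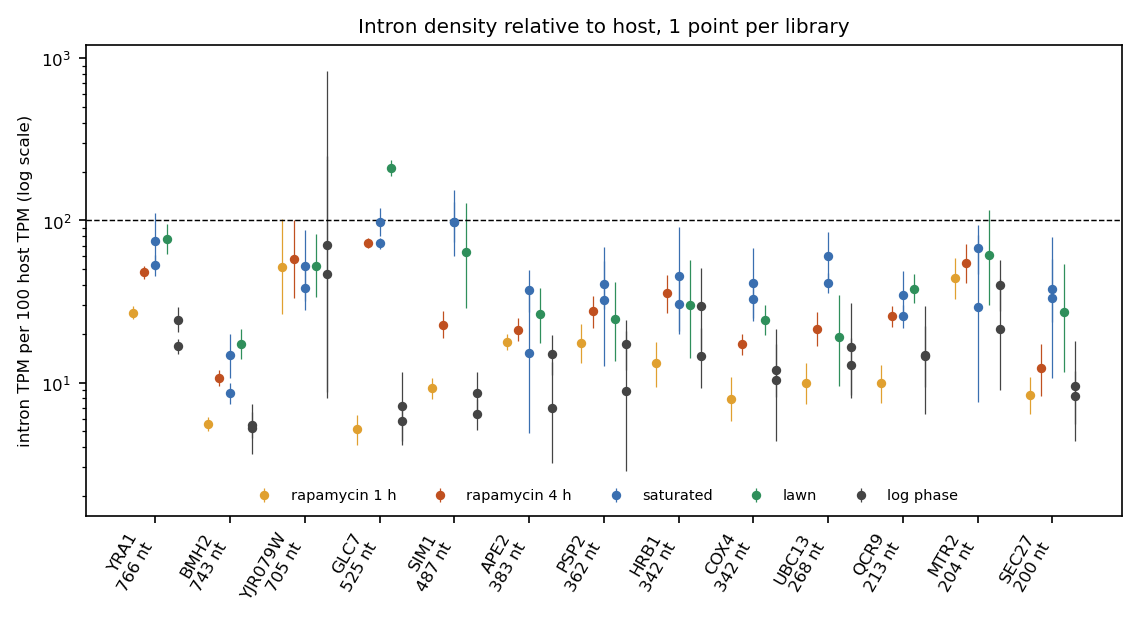
Intron TPM per 100 host TPM (log scale) for the 13 long introns, ordered by length. Each point is 1 library, bars are 95% counting intervals, and the dashed line marks equal intron and host TPM. GLC7 in the lawn, at 211, is the only point above the line, while BMH2 stays between 5.24 and 17.4.

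YRA1 (YDR381W, chrIV:1236558-1238004) encodes an adaptor of mRNA export, and its intron of 766 nt was the longest of the set. It had 27.0 intron TPM per 100 host TPM at 1 h of rapamycin, 47.9 at 4 h, 52.9 and 74.6 at saturation, 76.8 in the lawn, and 16.7 and 24.5 in log phase. Every other library lay above both log-phase libraries, by little at 1 h. Relative to its host the intron rose by 1.26 ± 0.34 (log2) at 4 h (edgeR, Benjamini-Hochberg adjusted p = 0.000568) and by 1.94 ± 0.37 in the lawn (edgeR, adjusted p = 6.4e-07). The 4 h call of YRA1 was lost by limma (1.24). The intron level itself, scaled to gene reads, changed by 0.24 ± 0.42 at 4 h and 0.29 ± 0.43 in the lawn, neither called. The host RNA fell by 1.64 ± 0.46 in the lawn (edgeR, adjusted p = 0.0199) and changed by -1.01 ± 0.44 at 4 h (edgeR, adjusted p = 0.121).

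SIM1 (YIL123W, chrIX:128151-129581), a cell-wall protein of the SUN family, has an intron of 487 nt outside the annotated span. The intron had 9.23 TPM per 100 host TPM at 1 h, 22.8 at 4 h, 98.4 and 97.9 at saturation, 63.9 in the lawn (interval 28.7 to 128, from 10 intron reads), and 6.37 and 8.65 in log phase. No other group overlapped log phase, although the 1 h value was close to it. Relative to its host the intron rose by 1.65 ± 0.37 at 4 h (edgeR, Benjamini-Hochberg adjusted p = 4.26e-05) and by 3.13 ± 0.70 in the lawn (edgeR, adjusted p = 2.33e-05). The SIM1 transcript was the member host that fell most: it had 485 TPM at 1 h, 174 TPM at 4 h, 28.5 and 52.4 TPM at saturation, 25.6 TPM in the lawn, and 401 and 560 TPM in log phase. Host RNA fell by 1.99 ± 0.46 at 4 h and by 4.77 ± 0.56 in the lawn (edgeR, adjusted p = 0.0144 and 0.000396). The SIM1 intron level was not called in either condition, with -0.37 ± 0.54 at 4 h and -1.66 ± 0.69 in the lawn.

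BMH2 (YDR099W, chrIV:653607-654428), a 14-3-3 protein, carries an intron of 743 nt outside the span and had the lowest mean log-phase density of the set. It had 5.55 intron TPM per 100 host TPM at 1 h, 10.7 at 4 h, 8.58 and 14.7 at saturation, 17.4 in the lawn, and 5.50 and 5.24 in log phase. At 1 h the value differed from log phase by less than its counting interval. Relative to its host the intron rose by 0.99 ± 0.35 at 4 h (edgeR, Benjamini-Hochberg adjusted p = 0.00986) and by 1.69 ± 0.38 in the lawn (edgeR, adjusted p = 2.85e-05). The 4 h call was lost by DESeq2 (0.99), by limma (0.98) and without log-phase replicate 1 (1.03). The host transcript was called in none of the 3 conditions.

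COX4 (YGL187C, chrVII:149704-150171) and QCR9 (YGR183C, chrVII:859063-859476) encode subunits of respiratory-chain complexes, cytochrome c oxidase and ubiquinol-cytochrome c reductase. The COX4 intron of 342 nt had 7.98 TPM per 100 host TPM at 1 h, 17.2 at 4 h, 32.7 and 41.1 at saturation, 24.5 in the lawn, and 11.2 ± 1.14 in log phase (SD, n = 2). The QCR9 intron of 213 nt had 9.92 at 1 h, 25.6 at 4 h, 25.6 and 34.8 at saturation, 38.0 in the lawn, and 14.8 and 14.6 in log phase. Both introns were thus lowest at 1 h and above log phase at 4 h and later. Their hosts rose: COX4 RNA by 1.76 ± 0.29 at 4 h and 2.57 ± 0.29 in the lawn (edgeR, Benjamini-Hochberg adjusted p = 0.00429 and 0.000354). QCR9 RNA rose by 1.81 ± 0.31 and 2.76 ± 0.31 (edgeR, adjusted p = 0.00474 and 0.000354).

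The levels of these 2 introns, scaled to gene reads, rose with the hosts. For COX4 the intron level rose by 2.34 ± 0.45 at 4 h and 3.65 ± 0.46 in the lawn (edgeR, Benjamini-Hochberg adjusted p = 0.00634 and 0.000377). For QCR9 it rose by 2.63 ± 0.45 and 4.14 ± 0.45 (edgeR, adjusted p = 0.00417 and 0.000187). Relative to host the rises were smaller: in the lawn 1.08 ± 0.47 for COX4 and 1.36 ± 0.48 for QCR9 (edgeR, adjusted p = 0.0309 and 0.00829), and at 4 h 0.57 ± 0.45 and 0.79 ± 0.47, not called (edgeR, adjusted p = 0.262 and 0.131). Without log-phase replicate 1, the intron levels of COX4 (2.49) and QCR9 (2.46) at 4 h and both lawn values relative to host (1.22 and 1.37) were no longer called. The lawn values relative to host of COX4 and QCR9 were also not called by DESeq2 (1.10 and 1.37) or limma (1.08 and 1.33). Without log-phase replicate 2, COX4 lost the call of its intron level at 4 h (2.19) and of its lawn value relative to host (1.02).

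**Figure D2:**
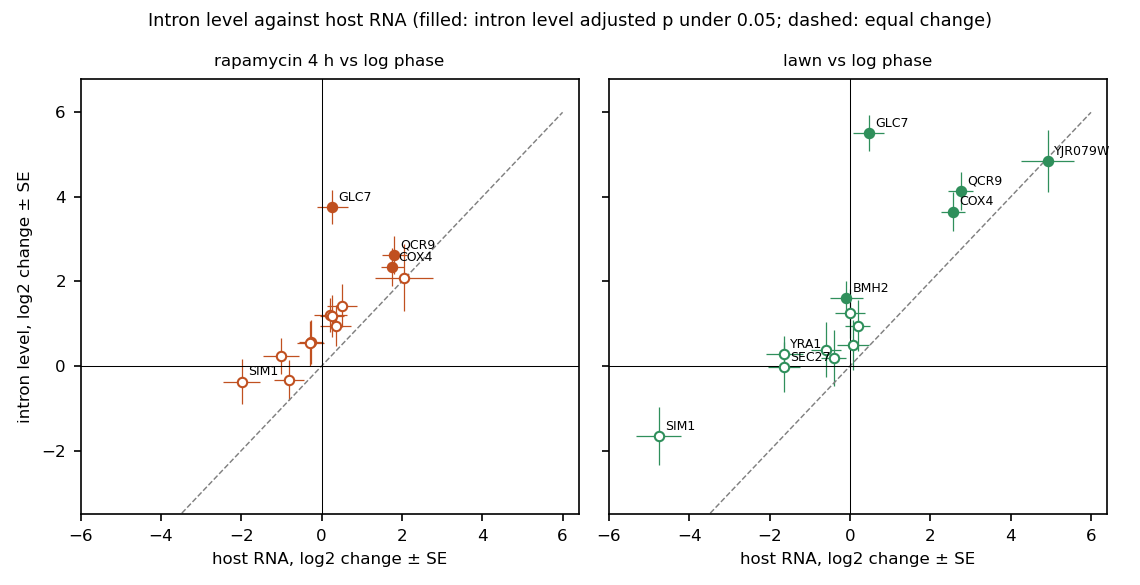
Log2 change of intron level (vertical axis, scaled to gene reads) against log2 change of host RNA (horizontal axis), with standard errors, for the 13 long introns at 4 h of rapamycin and in the lawn, each against log phase. Names are given where the intron level or the host was called. GLC7 stands at 3.76 and 5.50 with host changes of 0.27 and 0.46, COX4 and QCR9 are raised on both axes, and SIM1 lies at a host change of -1.99 and -4.77.

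APE2 (YKL157W, chrXI:154991-158232), an aminopeptidase, was the only member called at 1 h of rapamycin in level or in host RNA. Its intron of 383 nt had 103 TPM at 1 h, 65.4 at 4 h, 24.8 and 12.6 at saturation, 58.1 in the lawn, and 19.7 and 12.1 in log phase. The host had 582 TPM at 1 h, 308 at 4 h, 66.7 and 82.8 at saturation, 219 in the lawn, and 131 and 172 in log phase. Intron and host were both highest at 1 h. Intron level rose by 2.07 ± 0.50 at 1 h (edgeR, Benjamini-Hochberg adjusted p = 0.00635) and host RNA by 1.40 ± 0.36 (edgeR, adjusted p = 0.0229). The intron relative to host changed by 0.57 ± 0.38 (edgeR, adjusted p = 0.826). The intron level was not called without log-phase replicate 2 (1.79), and host RNA was not called without log-phase replicate 1 (1.23) or without replicate 2 (1.55).

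SEC27 (YGL137W, chrVII:249869-252738), a subunit of the COPI vesicle coat, rose relative to host by 1.65 ± 0.71 in the lawn (edgeR, Benjamini-Hochberg adjusted p = 0.0292). Its density was 8.41 at 1 h, 12.2 at 4 h, 37.8 and 33.2 at saturation, 27.1 in the lawn from 8 reads, and 8.27 and 9.51 in log phase. The lawn change beyond log phase rested on few reads, and without log-phase replicate 1 it was not called (1.51). APE2 rose relative to host in the lawn by 1.14 ± 0.48 (edgeR, adjusted p = 0.0248), and this call was lost without log-phase replicate 2 (0.82), by DESeq2 (1.22), by limma (1.35) and with a replicate block (0.80).

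The remaining 5 introns were called relative to host in neither rapamycin at 4 h nor the lawn. HRB1 (YNL004W, chrXIV:622915-624621), an mRNA export protein, had 13.2 intron TPM per 100 host TPM at 1 h, 35.6 at 4 h, 30.7 and 45.5 at saturation, 30.2 in the lawn, and 14.5 and 29.7 in log phase. UBC13 (YDR092W, chrIV:629876-630605), a ubiquitin-conjugating enzyme, had 9.95 at 1 h, 21.5 at 4 h, 41.2 and 60.2 at saturation, 19.2 in the lawn, and 12.9 and 16.6 in log phase. In both introns log-phase values lay between those of 1 h and 4 h, and UBC13 was highest at saturation. MTR2 (YKL186C, chrXI:92744-93298), which works with Mex67 in mRNA export, had 44.3 at 1 h, 54.4 at 4 h, 67.2 and 29.4 at saturation, 61.6 in the lawn, and 40.2 and 21.3 in log phase. PSP2 (YML017W, chrXIII:236588-238731), an RNA-binding protein, had 17.6, 27.6, 40.6 and 32.2, 24.8, and 17.4 and 8.85 in the same order. For MTR2 the saturated group overlapped log phase and the other groups lay above it, and for PSP2 the other groups lay above log phase, by little at 1 h.

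YJR079W (chrX:580205-581239) had a flat ratio and few reads in log phase. Its intron of 705 nt had 51.7 TPM per 100 host TPM at 1 h, 57.6 at 4 h, 38.6 and 52.7 at saturation, 52.7 in the lawn, and 46.8 and 70.2 in log phase, where only 4 and 3 intron reads were found. It passed the read minimum only through libraries other than log phase. The lawn estimates were 4.84 ± 0.74 for intron level and 4.93 ± 0.66 for host RNA, which had 4 and 2 reads in log phase. Both were called, but with so few log-phase reads these calls support no claim of a rise. Whether counting used strand is not given, so reads of YJR079W, AIM24 and BNA2 cannot be told apart where the genes overlap. BNA2 rose by 4.53 ± 0.68 in the lawn (edgeR, adjusted p = 0.00106) and AIM24 changed by 0.80 ± 0.34 (edgeR, adjusted p = 0.0903). Their part in the YJR079W values was not tested.

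Counts and medians of the 13 were set beside those of all 270 introns tested. At 1 h of rapamycin 0 of 13 were called relative to host in edgeR, against 4.44% of all introns higher and 1.85% lower. None had an unadjusted p under 0.05, and DESeq2 and limma also called 0. At 4 h 4 of 13 rose (30.8%), GLC7, SIM1, YRA1 and BMH2, and 0 fell, against 64.1% of all introns higher and 0.741% lower, and the median change of the 13 was 0.82, against 1.55 over all introns. Ribosomal protein introns, of which 96.2% rose, weigh heavily in the share over all introns. Among shorter introns no denser than host 34.5% rose, among introns denser in 1 saturated library 25.7%, and among those denser in both 61.1%. Median changes of these classes, in this order, were 1.04, 1.10 and 2.24, and that of ribosomal protein introns was 1.76. In the lawn 8 of 13 rose (61.5%) and 0 fell, against 68.9% and 0.741% of all, with a median of 1.14, against 2.35 over all. The shares in the lawn were 41.8% for shorter introns no denser than host and 34.3% for introns denser in 1 saturated library. They were 66.7% for introns denser in both and 98.1% for ribosomal protein introns. Median changes in the lawn, in the same order of classes, were 1.90, 1.43, 2.94 and 2.61. The point estimates of all 13 at 4 h and of 12 in the lawn were above 0, as were those of 248 and 242 of all 270 introns. The count at 4 h was 2 by limma, and the lawn count was 5 by DESeq2, by limma and without log-phase replicate 1.

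**Figure D3:**
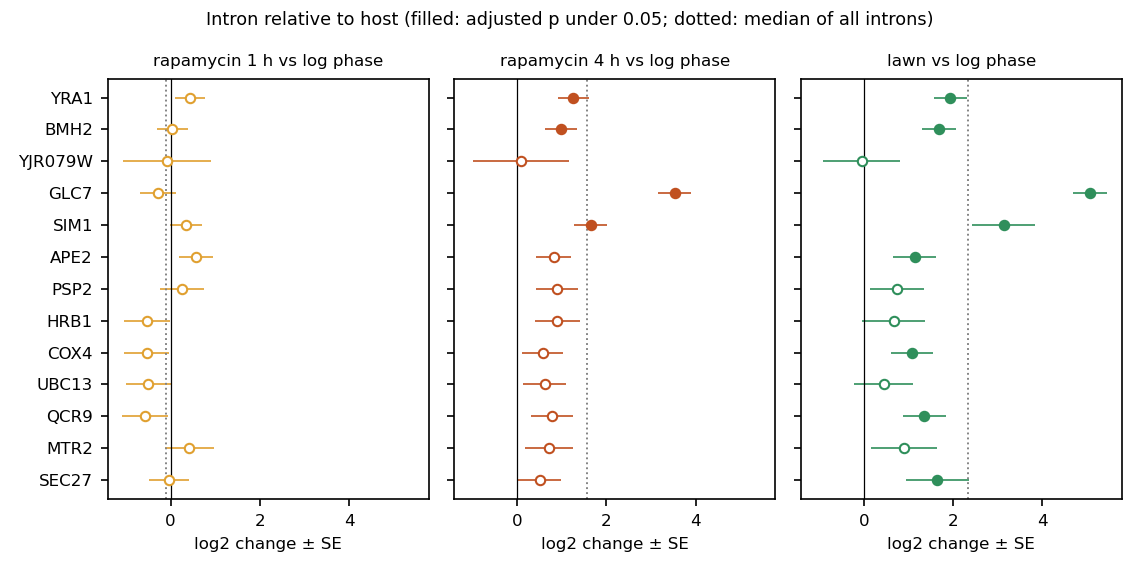
Log2 change of intron relative to host with standard errors for the 13 long introns, ordered by length, in 3 conditions against log phase. Filled points were called, and the dotted line is the median of all 270 introns, at -0.11, 1.55 and 2.35. GLC7 lies to the right of that line at 4 h and in the lawn, and most other points at these conditions lie to its left.

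Because the median intron rose relative to its host at 4 h and in the lawn, each intron was also measured from the median intron. On that scale GLC7 was the only one called higher, by 1.98 ± 0.37 at 4 h (edgeR, Benjamini-Hochberg adjusted p = 4.63e-06, with 8.89% of all introns higher and 4.44% lower) and by 2.73 ± 0.38 in the lawn (edgeR, adjusted p = 8.39e-11, with 15.6% higher and 11.1% lower). In the lawn 6 were called lower: YJR079W at -2.39, UBC13 at -1.88, HRB1 at -1.66, PSP2 at -1.59, COX4 at -1.26 and APE2 at -1.19. So were 11 of 55 shorter introns no denser than host and 5 of 35 introns denser in 1 saturated library. Among introns denser in both it was 3 of 36, and among ribosomal protein introns 3 of 104. Ribosomal protein introns are 104 of the 270 that set the median. YJR079W, HRB1 and APE2 lay close to the threshold. YJR079W had only 4 and 3 log-phase intron reads, so its call supports nothing here. On this scale YRA1 and BMH2 had estimates below 0 in both conditions, and SIM1 had 0.09 ± 0.39 at 4 h and 0.80 ± 0.65 in the lawn, neither called. The rises of YRA1, BMH2 and SIM1 relative to their hosts thus did not pass a test against the median intron, which does not show that they equalled it.

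In intron level the count at 1 h was 1 of 13 higher and 0 lower, against 1.11% of all introns higher and 39.6% lower. Of the 107 introns that fell, 99 were of ribosomal protein hosts, while 3.64% fell among shorter introns no denser than host and 5.71% among introns denser in 1 saturated library. At 4 h 3 of 13 rose and 0 fell, against 20.4% and 1.48% of all introns, and in the lawn 5 of 13 rose and 0 fell, against 25.2% and 2.96%. The 5 in the lawn were GLC7, YJR079W, QCR9, COX4 and BMH2. YJR079W, with 4 and 3 log-phase reads, passed the read minimum through the libraries where it is high, so its call supports nothing here, and 4 of 12 are called without it. BMH2 rose by 1.60 ± 0.41 (edgeR, Benjamini-Hochberg adjusted p = 0.0145), a call lost without either log-phase replicate (1.60 without replicate 1 and 1.53 without replicate 2) and with a replicate block (1.61). The level count at 1 h was 0 without log-phase replicate 2 and 2 when either saturated library was left out. At 4 h leaving out log-phase replicate 1 gave 1, and leaving out saturated replicates 1 and 2 in turn gave 7 and 6. Host RNA was called higher for 1 and lower for 0 of 13 at 1 h, against 9.18% and 11.5% of all genes. At 4 h 2 hosts rose and 1 fell, against 14.8% and 11.5% of genes, and in the lawn 3 rose and 3 fell, against 20.7% and 20.9%. The lawn rises were COX4, QCR9 and YJR079W, and the YJR079W host, with 4 and 2 log-phase reads, supports nothing here. Hosts called at 1 h were 0 without either log-phase replicate and 4 without either saturated one, and hosts called at 4 h were 6 without either saturated one. The lawn falls were SIM1, YRA1 and SEC27, the last by 1.65 ± 0.39 (edgeR, adjusted p = 0.00905), a call lost without log-phase replicate 1 (-1.57).

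Between 4 h and 1 h of rapamycin, a direct comparison of 1 library each, 7 of 13 introns rose relative to host (53.8%) and 0 fell, against 61.9% and 0.741% of all introns. GLC7 rose by 3.81 ± 0.41, HRB1 by 1.43 ± 0.53, QCR9 by 1.36 ± 0.47 and SIM1 by 1.31 ± 0.41 (edgeR, Benjamini-Hochberg adjusted p = 9.85e-18, 0.0145, 0.00879 and 0.00373). UBC13, COX4 and BMH2 rose by 0.95 to 1.11. By DESeq2 GLC7 and SIM1 were called and by limma GLC7 alone. On the scale of the median intron, each time was centred by its own median against log phase. All introns then had a median of -0.15 for 4 h against 1 h. Measured from the median intron, GLC7 was higher by 2.15 ± 0.40 and APE2 lower by a log2 value of -1.40 ± 0.40 (edgeR, adjusted p = 5.35e-06 and 0.00545), against 7.78% of all introns higher and 5.93% lower.

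Log-phase density ran from 5.50 to 46.8 intron TPM per 100 host TPM in replicate 1 and from 5.24 to 70.2 in replicate 2, with YJR079W, at 4 and 3 intron reads, the highest in both. The median over the long introns was 14.5 and 10.4 intron TPM per 100 host TPM in the log-phase libraries, against 14.9 and 12.5 for the shorter introns no denser than host, and 4.09 and 4.40 for ribosomal protein introns. In the lawn the medians were 30.2, 51.6 and 25.6 for the same 3 classes. Across the 13 introns, length had a Spearman correlation of -0.19 with log-phase density and 0.55 with the change relative to host at 4 h and 0.33 with that in the lawn, where all points share their libraries. Log-phase density and host TPM had a correlation of -0.69, but host TPM is the denominator of density.

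Of the 4 introns outside the annotated span, 2 rose relative to host at 4 h and 3 in the lawn. Of the 9 inside it, 2 rose at 4 h and 5 in the lawn. Over all introns 64.1% rose at 4 h and 68.9% in the lawn. With so few introns, a difference by position was not tested. Medians were 0.85 outside and 0.82 inside at 4 h, and 1.38 outside and 1.14 inside in the lawn.

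Genes were read from lists by function, of which only those of mRNA export and protein phosphatase 1 hold member hosts. Among 19 mRNA export genes, the group of YRA1, HRB1 and MTR2, 1 fell and 0 rose at 1 h, 3 fell and 0 rose at 4 h, and 6 fell and 0 rose in the lawn, against 11.5%, 11.5% and 20.9% of all genes lower. The 3 of 19 at 4 h are near that share. The falls at 4 h were NPL3 by 1.83 ± 0.41, SUB2, an RNA helicase of export, by 1.57 ± 0.39 and DBP2, another RNA helicase, by 1.37 ± 0.35 (edgeR, Benjamini-Hochberg adjusted p = 0.0126, 0.0198 and 0.0201). At 1 h only DBP2 was called, and it fell by 4.71 ± 0.42 (edgeR, adjusted p = 0.000346).

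Among 17 protein phosphatase 1 genes, the group of GLC7, 5 rose and 0 fell at 1 h and at 4 h, and 7 rose and 0 fell in the lawn, against 9.18%, 14.8% and 20.7% of all genes higher, while GLC7 RNA itself was not called. At 4 h GAC1, a glycogen-targeting subunit, rose by 5.00 ± 0.45, REG2 by 3.10 ± 0.67, GIP2 by 2.78 ± 0.44 and PIG2 by 2.74 ± 0.35 (edgeR, Benjamini-Hochberg adjusted p = 0.000509, 0.0114, 0.00372 and 0.00142). In the same comparison the list's median change was 0.53, against 0.06 over all genes.

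Among 13 genes of intron turnover, 3 fell at 1 h, 1 at 4 h and 2 in the lawn, against 11.5%, 11.5% and 20.9% of all genes lower. In the lawn 1 rose, against 20.7% of all genes higher. At 4 h and in the lawn the counts are at or below those shares. PRP43, the helicase that disassembles the spliceosome after splicing, fell in all 3 conditions, with log2 changes of -4.18 ± 0.38 at 1 h, -1.90 ± 0.33 at 4 h and -3.22 ± 0.38 in the lawn (edgeR, Benjamini-Hochberg adjusted p = 0.000346, 0.00509 and 0.000411). Of 14 genes of the unfolded protein response, 1 fell at 1 h, 1 rose and 3 fell at 4 h, and 8 fell in the lawn. The shares of all genes lower are the same as above, and 14.8% of all genes rose at 4 h. The 1 of 14 lower at 1 h and the 1 of 14 higher at 4 h are below these shares. The sensor IRE1 rose by 1.26 ± 0.32 at 4 h (edgeR, adjusted p = 0.0201), and EUG1, SIL1 and LHS1 fell by 1.33 ± 0.35, 1.32 ± 0.34 and 1.12 ± 0.31 (edgeR, adjusted p = 0.025, 0.0217 and 0.0298).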

How the data were processed

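Read counts and TPM of 6665 genes and 300 introns were deposited by the authors for each of 7 libraries, with columns named per the file headers. The deposited TPM values sum to 1000000 per library over genes and introns. The tools were cutadapt 1.8 and STAR 2.4 and the build R64 (sacCer3), per the submitters' processing notes. What counted the reads, on which annotation and strand, stands in none of the sources read here. Locus tags were matched to symbols and spans of R64 for 5989 genes.

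Intron length is reads over TPM, scaled so that YBR078W has 330 nt. Membership and lists were chosen with earlier results of these data known. Introns relative to host were tested with edgeR 4.0.16 (R 4.3.3) quasi-likelihood, stacking the intron and host counts of each library with a term for each library, an intron term and an intron-by-group term. Intron level used TMM scaling of gene reads, and host RNA used TMM with the low-count filter of edgeR. Each was one fit of all 7 libraries, over 270 introns or 5827 genes, with Benjamini-Hochberg adjustment at 0.05, two-sided. There were 2 residual degrees of freedom, and prior ones were infinite, 7.5 and 6.94. Groups with 1 library are assumed to vary like the log-phase and saturated pairs. Called means past that threshold. Named introns are those called in each comparison by size, those of known interest, and the highest and lowest log-phase densities, which together with the remaining members covers all 13. Values after ± on the log2 scale are standard errors, and intervals are exact at 95% and cover counting error only. Counts of replicates differed beyond counting noise (chi-square over degrees of freedom 16.1 in log phase and 35.9 at saturation). Alternatives were DESeq2 1.42.0, limma 3.58.1 (log2 of intron over host reads, pseudocount 0.5), RLE scaling, no filter, a minimum of 50 reads, a limit of 250 nt, a block by replicate number, omission of saturated libraries and leaving out each replicate. The median intron as the point of no change, 17 members and 12 members were added after seeing the data. The steps were tested on counts simulated with the same spread in all libraries. Such counts cannot show whether groups with 1 library vary like the pairs.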

Additional observations from a re-analysis of the deposited data

Results flagged for a closer look

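The change between 1 h and 4 h of rapamycin was tested directly for each long intron relative to its host, with 1 library at each time. A difference between the times was called by edgeR (quasi-likelihood, Benjamini-Hochberg adjustment over 270 introns) for 7 of 13 introns, all higher at 4 h, against 61.9% of all introns. On the log2 scale the difference was 3.81 for GLC7, 1.43 for HRB1, 1.36 for QCR9, 1.31 for SIM1, 1.11 for UBC13, 1.10 for COX4 and 0.95 for BMH2. UBC13 lost its call without log-phase replicate 2 (1.11). DESeq2 called GLC7 and SIM1 and limma GLC7 alone. HRB1, UBC13, COX4 and QCR9 were called in neither time point against log phase. Measured from the median intron of each time against log phase, GLC7 remained higher at 4 h (2.15), and APE2 was lower (-1.40). The cause of these differences was not tested.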

How the results depend on the processing

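Of 1313 alternative values for single introns and hosts, 58 gained a call and 40 lost one. The sign changed in 62, and 35 of these came from measuring from the median intron. In 18 of the 62, all on that scale, the value was called before or after the change. Measured from the median intron of each group against log phase, 11 of 13 signs changed at 4 h, 10 in the lawn, 12 for 4 h against 1 h and 2 at 1 h. Those with a call were, at 4 h, BMH2 (-0.57) and YRA1 (-0.29). In the lawn they were UBC13 (-1.88), BMH2 (-0.66), YRA1 (-0.40), APE2 (-1.19), COX4 (-1.26), SEC27 (-0.67), QCR9 (-0.98), HRB1 (-1.66) and PSP2 (-1.59). For 4 h against 1 h they were UBC13 (-0.54), BMH2 (-0.71), SIM1 (-0.35), APE2 (-1.40), COX4 (-0.55), QCR9 (-0.30) and HRB1 (-0.22). The counts of members called relative to host on that scale were 1 at 4 h and 2 for 4 h against 1 h. By DESeq2 they were 5 in the lawn and 2 for 4 h against 1 h, and by limma 2 at 4 h, 5 in the lawn and 1 for 4 h against 1 h. Leaving out each replicate gave 5 to 8 in the lawn. The count of intron levels called at 1 h was 2 with a minimum of 50 reads and 2 without saturated libraries, and 0 to 2 leaving out each replicate. At 4 h it was 5 with no filter and 7 without saturated libraries, and 1 to 7 leaving out each replicate. Hosts called without saturated libraries were 4 at 1 h and 6 at 4 h, and leaving out each replicate gave 0 to 4 and 3 to 6. With 17 members the counts were 1 relative to host at 1 h, 2 and 5 in intron level at 1 h and 4 h, and 3 and 5 for hosts at those times. Replicate numbers showed a correlation of deviations of 0.20 over genes and 0.09 over introns. With only 2 pairs this cannot show whether samples of the same number share a batch. With the replicate block, hosts called were 2 at 1 h and 5 at 4 h, while the other counts stayed within 1.5 times. The block ended the call of APE2 relative to host (0.80) and of the BMH2 intron level (1.61), both in the lawn. The cause of these shifts was not tested, except that 17 members add introns by construction. Depth limits introns such as SEC27, with 8 reads in the lawn, and MTR2, with 4 in saturated replicate 2.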
